A study of Rattus norvegicus with 28 samples.

Results

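Prozac (fluoxetine), an antidepressant that blocks the serotonin transporter, was given to rats after traumatic brain injury (TBI), and hippocampal gene expression in these rats was compared with that in injured rats given no drug. The comparison used the gene expression arrays titled TBI+Prozac (3 arrays) and TBI (3 arrays), which were 6 of the 14 gene expression arrays and of the 28 arrays in the series. All rats were adult male Sprague-Dawley rats killed 24 h after injury, and total RNA came from the whole hippocampus. TBI rats received a severe parasagittal fluid-percussion injury, in which a pulse of saline strikes the dura, and carried no drug label. The study's methods speak of an antidepressant or a vehicle, and the labels do not say whether TBI rats received the vehicle. TBI+Prozac rats received the same injury and an injection of the drug 1 h later, and the remaining arrays were Sham (uninjured) rats or injured rats given imipramine or Zoloft (sertraline). The titles give each array its own animal number, samples were hybridised in 1 colour, and the slide layout was uneven: TBI+Prozac replicate 1 lay on the slide of all 3 TBI arrays, while replicates 2 and 3 lay on the slide of the imipramine and Zoloft arrays. Because the tissue is a whole hippocampus, fewer cells of a type and less RNA per cell cannot be told apart in any value below.

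The hippocampus is a glutamatergic structure whose pyramidal and granule cells respond through ionotropic AMPA, kainate and NMDA receptors and through slower metabotropic receptors, under inhibition by GABA interneurons. Serotonin reaches it from the raphe nuclei, so the transporter that Prozac blocks is made mainly by cells outside the dissected tissue. After fluid-percussion injury, hippocampal neurons degenerate while microglia and astrocytes become reactive and cytokine, complement and acute-phase transcripts accumulate.

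TBI+Prozac rats differed from TBI rats beyond the spread between arrays at a single probe. Of 17322 probes above background in every array of at least 1 group, 1 passed the adjusted threshold (limma with Benjamini-Hochberg adjustment, 0.00577% of those tested). At an unadjusted p under 0.05, 1708 probes were higher (9.86%) and 34 lower (0.196%) with Prozac. Values of the 3 TBI+Prozac arrays lay wholly above those of the 3 TBI arrays for 2573 probes (14.9%) and wholly below for 50 (0.289%). The median SE of a difference was 0.18 on the log2 scale and the median 95% interval reached 0.39 to either side; at that width, smaller changes were mostly not detectable with 3 arrays a group.

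Most of the array was shifted in the same direction. The median difference of all probes was 0.15 (log2, TBI+Prozac minus TBI), and 80.9% of probes were above 0. TBI replicate 1 stood apart: its median probe lay at -0.34 from the mean of the other TBI arrays. Taken the same way, TBI replicates 2 and 3 lay at 0.13 and 0.21. The TBI+Prozac arrays, taken against the mean of all TBI arrays, lay at 0.17, 0.06 and 0.20. TBI replicate 1 had 14676 probes above background, against 16672 to 17893 on the other 5 arrays of the comparison. Without it the median difference was 0.03, and with quantile normalization it was 0.002. Differences were also larger for dim probes, with medians of 0.26, 0.20, 0.16, 0.12 and 0.07 from the dimmest to the brightest of 5 equal groups of probes. With each array centred on the median of its probes, 838 probes were wholly higher (4.84%) and 1871 wholly lower (10.8%), and the share wholly lower was 3.38% in the dimmest of these groups and 26.1% in the brightest. Medians of gene lists are given below relative to the median of all probes.

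**Figure D1:**
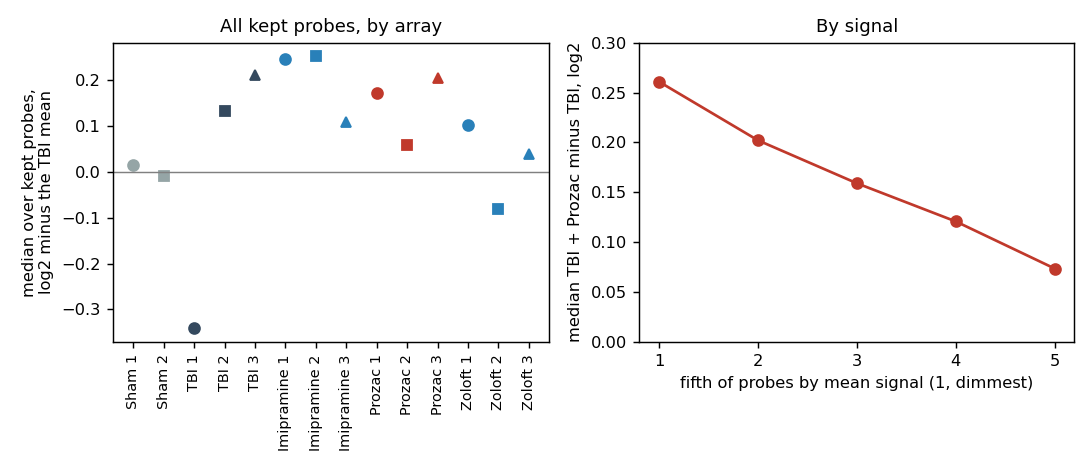
Left, the median over all kept probes of each gene expression array's log2 value minus the TBI mean. Each TBI array is instead taken minus the mean of the other TBI arrays. Red marks TBI+Prozac, dark TBI, grey Sham, and blue imipramine and Zoloft. Circle, square and triangle mark replicates 1, 2 and 3. TBI replicate 1 lies at -0.34, below every other array. Right, the median difference between TBI+Prozac and TBI (log2) in 5 equal groups of probes ordered by mean signal, which went from 0.26 in the dimmest to 0.07 in the brightest.

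The probe that passed was that of Ppp1r14bl, a gene named for its likeness to Ppp1r14b, an inhibitor of protein phosphatase 1. Its log2 values, relative to each array's 75th percentile, were -4.58, -5.07 and -5.16 in TBI+Prozac replicates 1, 2 and 3 and -6.91, -6.40 and -6.63 in the TBI replicates. All TBI+Prozac arrays were therefore above all TBI arrays, on the TBI slide and on the other slide alike. The probe was not well above background on any TBI array and was above it on all 3 TBI+Prozac arrays. On the scanner's processed signal its mean level with Prozac was 2.37-fold a floor for the TBI arrays. That floor was the lowest signal of any probe marked above background on each array, or the probe's own value where higher. The fitted difference of 1.71 (SE 0.20, adjusted p = 0.0259 in limma) is taken against TBI values that were not above background. Neither value is a lower bound on the change. With a normexp background correction the difference was 0.52 (adjusted p = 0.582 in limma). In Sham rats the probe was at -5.54 and -5.12, and in the other drug groups its mean was -5.36. In limma the call was also lost with quantile normalization (adjusted p = 0.0676) and without TBI replicate 1 (adjusted p = 0.109). Whether the probe also binds the Ppp1r14b transcript was not tested.

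Among named genes above background on all 6 arrays, the largest differences without overlap between groups included adhesion, synaptic and barrier genes, and none of them passed the adjusted threshold. Dscaml1, a neuronal adhesion molecule of the immunoglobulin family, was at -3.37, -3.13 and -3.08 with Prozac and at -3.99, -5.08 and -4.82 in TBI rats (difference 1.44, SE 0.47, adjusted p = 0.360). Ptprj, a receptor tyrosine phosphatase, was at 0.70, 1.13 and 1.30 against -0.48, 0.01 and 0.18 (difference 1.14, SE 0.35, adjusted p = 0.351). Neither gene's arrays overlapped between groups, and the spread within TBI was wide for Dscaml1. Itgam, which encodes the microglial integrin CD11b, was at -1.94, -2.06 and -2.13 against -2.86, -2.82 and -3.39 (difference 0.97, SE 0.25, adjusted p = 0.266), with Sham rats lower still at -4.36 and -3.78. Ocln, the tight junction protein occludin, was at -3.15, -3.09 and -3.27 against -3.97, -3.98 and -4.03 (difference 0.82, SE 0.21, adjusted p = 0.264). Both genes had 3 tightly grouped arrays with Prozac. Further genes of this kind were Ccdc43 (1.31), the ubiquitin ligase Rchy1 (1.03) and the postsynaptic scaffold Homer2 (0.83).

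In the other direction the differences were fewer on this scale, where the median of all probes was shifted upward. With arrays centred they were more, with 1871 probes wholly lower and 838 wholly higher. Abhd16a, a phosphatidylserine lipase, was at 0.07, 0.06 and 0.35 with Prozac and at 1.01, 1.08 and 1.02 in TBI rats (difference -0.88, SE 0.15, adjusted p = 0.117). The TBI arrays were close together, and the gene passed the threshold when each array was centred on its median (difference -1.05, adjusted p = 0.0272 in limma). Sprr1a, a gene that neurons switch on as injured axons regrow, was at -5.82, -5.35 and -5.83 with Prozac and at -5.25, -4.52 and -3.04 in TBI rats (difference -1.40, SE 0.59, adjusted p = 0.465), while Sham rats were at -6.59 and -7.25. C10h17orf75 differed by -1.55, C9h6orf141 by -1.03, Inhca by -0.77, the collagen gene Col7a1 by -0.60, the zinc finger gene Zfp593 by -0.54 and Prr22 by -0.42, with adjusted p-values between 0.340 and 0.473 in limma. For C9h6orf141, Inhca and Zfp593 a second probe gave a difference of the same sign (-1.17, -0.74 and -0.26). The second probes of Inhca and Zfp593 had overlapping arrays.

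**Figure D2:**
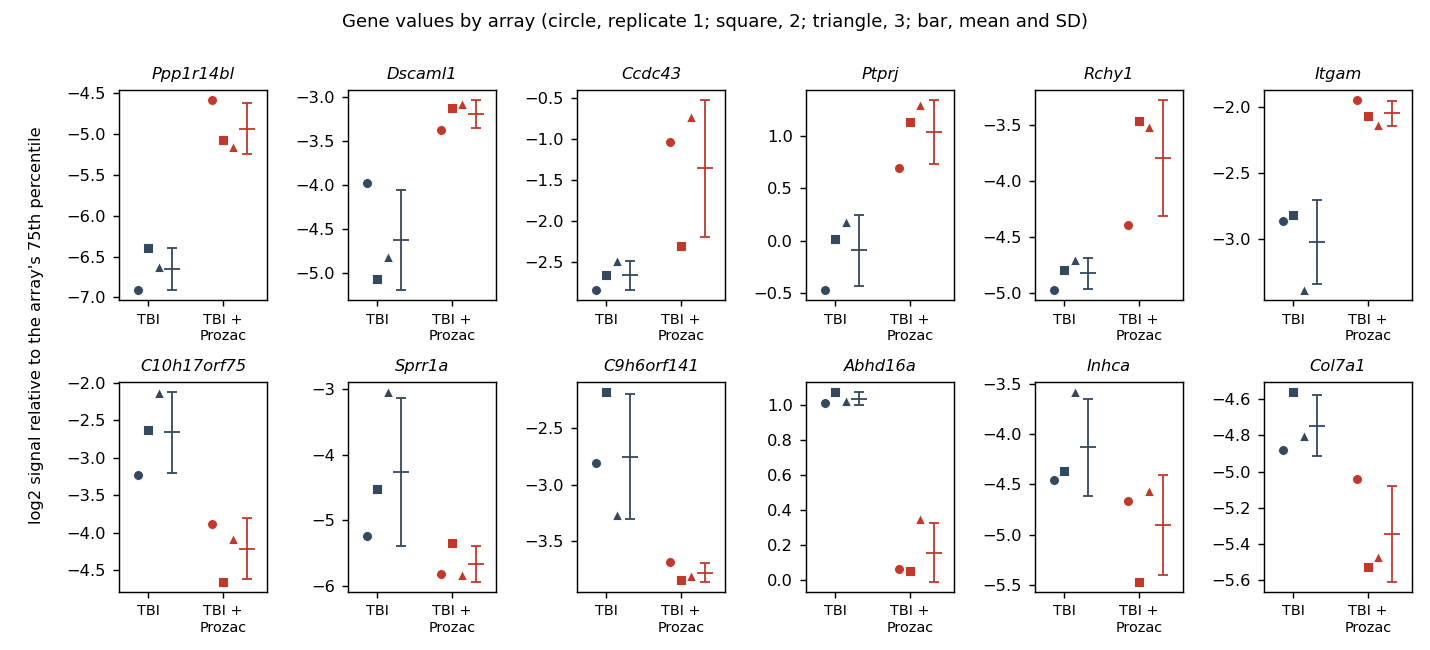
Log2 signal relative to the array's 75th percentile for Ppp1r14bl and for the 5 genes with the largest separate differences upward and the 6 with the largest downward, in TBI (dark) and TBI+Prozac (red) rats. Each point is 1 array (circle, replicate 1; square, 2; triangle, 3), and bars give the mean and SD of 3 arrays; the vertical scales differ between panels and do not start at 0.

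Of the 39 gene lists, ionotropic glutamate receptors had the highest median on the main scale with all 6 arrays. Choroid plexus (3.12), immediate early (0.37), blood cell (0.37) and myelin genes (0.33) were above them (0.25) in replicate 1 alone, and neuropeptide genes (0.28) were above them (0.25) without TBI+Prozac replicate 1 and TBI replicate 3. Of 18 ionotropic receptor genes 15 were measured, and the median of their differences was 0.20 above that of all probes (log2). Of the 15 differences, 14 were above 0 and 12 above the median of all probes. At an unadjusted p under 0.05, 4 were higher, against 9.86% of all probes, and none passed the adjusted threshold. In 6 of the 15 the TBI+Prozac arrays lay wholly above the TBI arrays, against 14.9% of all probes. With arrays centred, 6 lay wholly above (Gria1, Gria2, Gria3, Grik2, Grin2d and Grin3a), against 4.84% of all probes. Wholly below lay 2 (Gria4 and Grik5), against 10.8% of all probes.

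AMPA receptor subunits carry most fast excitatory transmission. Gria1 was at -0.73, -0.76 and -0.65 with Prozac and at -1.55, -1.41 and -1.03 in TBI rats (difference 0.61, SE 0.18, adjusted p = 0.340). Its TBI+Prozac arrays were close together and above every TBI array. Gria2, whose subunit makes the channel impermeable to calcium, was at 1.75, 1.89 and 1.84 against 1.31, 1.50 and 1.62 (difference 0.35, SE 0.13, adjusted p = 0.406). A second, dimmer Gria2 probe gave 0.24 with overlapping arrays. Gria3 was at 2.63, 2.67 and 2.69 against 2.13, 2.33 and 2.55 (difference 0.33, SE 0.13, adjusted p = 0.447). Gria4 went the other way, at -0.64, -0.66 and -0.57 against -0.78, -0.40 and -0.07 (difference -0.21, SE 0.25, adjusted p = 0.810). For all 4 AMPA genes TBI replicate 1 was the lowest TBI array, as it was for the median probe.

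Among kainate receptor genes, Grik2 was at -1.93, -2.16 and -2.07 with Prozac and at -2.78, -2.59 and -2.45 in TBI rats (difference 0.56, SE 0.12, adjusted p = 0.218), the smallest p of the family. Grik4 lay between -3.31 and -3.23 against -3.81 to -3.64 (difference 0.43, SE 0.24, adjusted p = 0.574). NMDA receptor genes were more variable. Grin1, the obligate subunit, was at -3.84, -4.49 and -4.77 against -4.86, -4.76 and -5.07, with a difference of 0.53 over all rats and of 1.06 in replicate 1. Grin2a differed by 0.51 with overlapping arrays, and Grin2d by 0.31 without overlap. As a family, the ionotropic genes' median level relative to all probes was 0.25, 0.28 and 0.11 in TBI+Prozac replicates 1 to 3 and 0.02, -0.07 and 0.07 in the TBI replicates. These did not overlap, but with quantile normalization they did, since the TBI+Prozac arrays then ran from 0.05 to 0.30 and the TBI arrays from -0.09 to 0.09. Over 15 settings the family's median stayed between 0.14 and 0.26 above that of all probes, and it was 0.25 in replicate 1 alone and 0.21 without it.

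**Figure D3:**
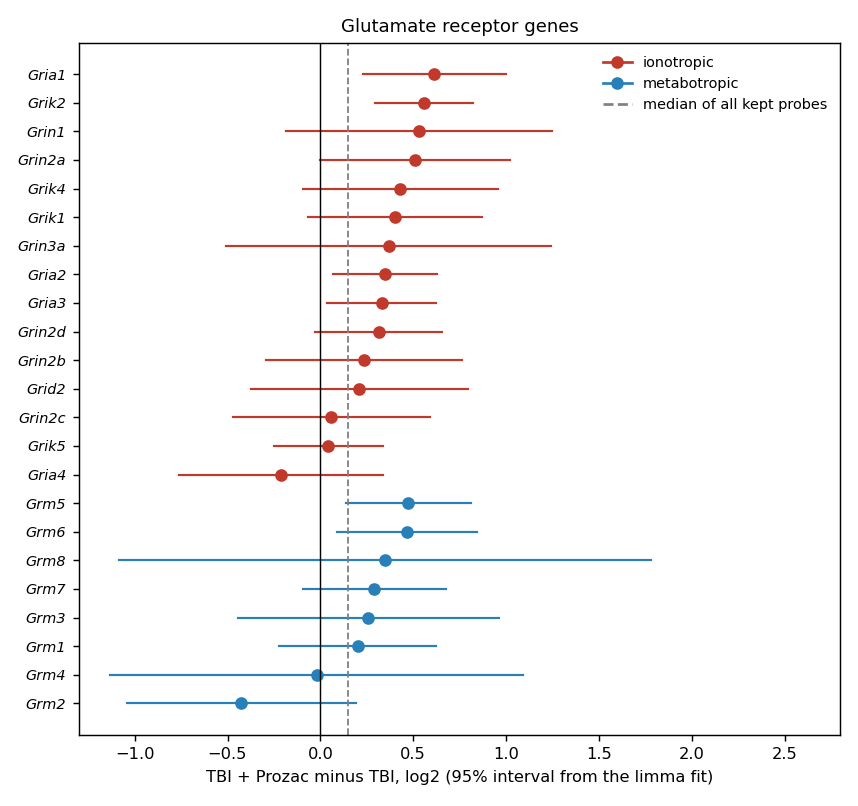
Difference between TBI+Prozac and TBI (log2) for the 15 measured ionotropic (red) and 8 metabotropic (blue) glutamate receptor genes, with 95% intervals from the limma fit. The dashed line is the median of all kept probes (0.15); most ionotropic genes lie to its right, and many intervals include it.

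All 8 metabotropic receptor genes were measured, with a median 0.13 above that of all probes. Grm5, a postsynaptic receptor coupled to calcium release, was at -3.68, -3.65 and -3.85 against -4.27, -4.32 and -4.01 (difference 0.47, SE 0.16, adjusted p = 0.360). Grm6 differed by as much (0.47), with overlapping arrays. Grm2, a presynaptic autoreceptor of mossy fibres, was at 0.12, 0.03 and -0.44 against -0.24, 0.69 and 0.54, a difference of -0.43 that was within the spread of the rats (adjusted p = 0.641). In 1 of the 8 the arrays were wholly higher with Prozac, against 14.9% of all probes. With arrays centred, 0 were wholly higher and 1, Grm2 (difference -0.60), wholly lower, against 4.84% and 10.8% of all probes. Without TBI replicate 1 the family's median was 0.03 above that of all probes.

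Genes of the postsynaptic density and of AMPA receptor traffic were represented by 20 of 27. All 20 differences were above 0, as were 80.9% of all probes, and 12 were above the median of all probes. In 8 of the 20 the arrays were wholly higher with Prozac, against 14.9% of all probes. With arrays centred, 5 were wholly higher and 1, the TARP gene Cacng2, wholly lower, against 4.84% and 10.8% of all probes. Nsf, an ATPase that binds the Gria2 subunit and drives membrane fusion, was at -1.76, -1.77 and -2.05 against -2.63, -2.69 and -2.32 (difference 0.69, SE 0.17, adjusted p = 0.234). Dlg4, the scaffold PSD-95, was at -2.54, -2.44 and -2.65 against -2.80, -3.04 and -2.90 (difference 0.37, SE 0.12, adjusted p = 0.360). Neither gene's groups of arrays overlapped. Cnih2, an auxiliary AMPA receptor protein, was at 1.29, 1.40 and 1.28 against 0.62, 0.33 and 0.66 (difference 0.78, SE 0.34, adjusted p = 0.471). Its Sham arrays were far apart, at -0.73 and 0.98. Of the AMPA receptor partners named TARPs, Cacng3 differed by 0.40 and Cacng7 by 0.45. The list's median was 0.06 above that of all probes.

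Lists of inhibitory transmission and of ion channels had medians above that of all probes, by less than the ionotropic receptors. GABA genes (17 of 23 measured) had a median 0.09 above that of all probes. Gad2, which makes GABA at terminals, was at -3.16, -3.57 and -3.46 against -4.63, -4.33 and -3.56 (difference 0.78, SE 0.22, adjusted p = 0.340), and TBI replicate 3 reached the TBI+Prozac range. The receptor subunit genes Gabra2 and Gabra5 differed by 0.51 and 0.28, and of this pair Gabra5 was without overlap. In 2 of the 17 GABA genes the arrays were wholly higher with Prozac, against 14.9% of all probes. With arrays centred, 1 was wholly higher (Gad2), against 4.84% of all probes. Voltage-gated and potassium channel genes (34 of 39) had a median 0.12 above that of all probes, with 26 of 34 above it. The calcium channel gene Cacna1i differed by 0.37 and the inward rectifier gene Kcnj6 by 0.42, both without overlap. A second, dimmer Cacna1i probe gave 0.16 with overlapping arrays. In 3 of the 34 channel genes the arrays were wholly higher with Prozac, against 14.9% of all probes. With arrays centred, 1 was wholly higher (Cacna1i) and 1 wholly lower (Kcnh1), against 4.84% and 10.8% of all probes. Neuropeptide genes (20 of 20) ranged more widely: Sst, the peptide of one interneuron class, was at -0.94, -0.29 and -0.86 against -2.13, -1.11 and -1.02, the related Cort was higher by 0.74 and Tac3 by 0.69, whereas the list's median was 0.07 above that of all probes and its level in TBI+Prozac replicate 1 was -0.02.

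Genes of the serotonin system were mostly too dim to be measured. Slc6a4, the transporter that Prozac blocks, and the synthetic enzymes Tph1 and Tph2 had probes on the array but were not kept, and 10 of 23 genes of the list were. Their median was 0.13 above that of all probes. Htr5b, a receptor, was at -1.46, -1.07 and -1.11 against -1.56, -1.48 and -1.95 (difference 0.45, SE 0.18, adjusted p = 0.439). Ddc, the decarboxylase that makes serotonin and dopamine, was at -3.08, -3.15 and -2.75 against -4.12, -5.12 and -3.25 (difference 1.17, SE 0.61, adjusted p = 0.549), with a wide spread in TBI rats. Htr1a, the main inhibitory serotonin receptor of hippocampal neurons, lay between -3.70 and -3.56 against -4.08 to -3.88 (difference 0.34, SE 0.25, adjusted p = 0.670). Receptors of noradrenaline, dopamine, histamine and muscarinic acetylcholine (14 of 24 genes) had a median of -0.05 relative to all probes.

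Activity-dependent genes varied between rats of the same group. Immediate early genes (20 of 25 measured) had a median 0.10 above that of all probes, but their level relative to all probes was 0.37 in TBI+Prozac replicate 1 and -0.14 and -0.12 in replicates 2 and 3. Fos was at -0.59 in replicate 1 and at -2.71 and -2.21 in the others, against -2.77, -1.58 and -1.77 in TBI rats. Of the orphan nuclear receptor genes, Nr4a1 was at -0.60, -0.88 and -0.80 against -1.44, -1.44 and -1.30 (difference 0.63, SE 0.15, adjusted p = 0.230), and Nr4a3 at -1.10, -0.97 and -0.60 against -1.84, -1.85 and -1.30 (difference 0.77, SE 0.24, adjusted p = 0.360). Both were above every TBI array in all 3 rats. In Sham rats Nr4a1 was at -0.58 and -0.55. Arc, which acts on AMPA receptor uptake, was also separate (difference 0.72) but with an SE of 0.61.

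Neurotrophins and growth factors (20 of 22) had a median 0.04 above that of all probes. Bdnf was at -3.31, -2.93 and -3.06 with Prozac and at -3.74, -3.73 and -3.26 in TBI rats (difference 0.48, SE 0.47, adjusted p = 0.763), and Fgf1 differed by 0.43. Neurogenesis and progenitor genes (18 of 23) had the same median of 0.04, and the cyclin gene Ccnd2, between 0.71 and 1.09 against 0.50 to 0.55, was among the 3 of 18 without overlap, against 14.9% of all probes wholly higher. With arrays centred, 0 of the 18 were without overlap. Genes of CREB, AKT and MAP kinase signalling (30 of 34) had a median 0.02 above that of all probes. Circadian clock genes (14 of 22) had a median within 0.01 of it, with Per3 highest (difference 0.56, adjusted p = 0.320). Markers of hippocampal subfields and neurons (14 of 20 measured, all 14 above 0) had a median of 0.04. In 5 of the 14 the arrays were wholly higher with Prozac, against 14.9% of all probes. Among these 5 were the synaptic vesicle genes Syt1 and Snap25, which differed by 0.59 and 0.35. With arrays centred, 2 were wholly higher (Syt1 and Zbtb20), against 4.84% of all probes, and Snap25 overlapped. Prox1, a granule cell marker, was not above background in every array of any group, and Rbfox3 had no matched probe. Myelin and oligodendrocyte genes (19 of 20, all 19 above 0) had a median 0.10 above that of all probes, but a level of 0.33 in TBI+Prozac replicate 1 and of -0.01 and 0.03 in replicates 2 and 3. Myrf, which drives the myelin programme, was at -4.10, -4.81 and -4.67 against -5.35, -5.11 and -5.25 (difference 0.71, SE 0.20, adjusted p = 0.321).

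Cytokine, complement and reactive astrocyte lists lay below the median of all probes, and no member of any inflammatory list passed the adjusted threshold. Cytokine genes (20 of 30) had a median of -0.21 relative to all probes, with 3 of 20 above that of all probes. In 2 of the 20 the arrays were wholly lower with Prozac, against 0.289% of all probes, and 0 were wholly higher. With arrays centred, 4 were wholly lower (Il1a, Il1r2, Stat3 and Il13ra1), against 10.8% of all probes, and 0 wholly higher. Il1a was dim, above background on 1 TBI array and on 0 TBI+Prozac arrays. Reactive astrocyte genes (24 of 30) had a median of -0.20 and complement genes (16 of 21) a median of -0.19, with 1 of 16 above that of all probes. Tnf was at -3.45, -4.58 and -4.48 with Prozac and at -3.77, -2.73 and -4.00 in TBI rats (difference -0.67, SE 0.42, adjusted p = 0.619). Gfap, the astrocyte filament, was at 2.00, 2.48 and 1.93 against 2.00, 3.07 and 2.89 (difference -0.52, SE 0.40, adjusted p = 0.691), whereas the filament gene Vim differed by 0.39 the other way. As lists the groups overlapped, since reactive astrocyte genes, relative to all probes, ranged from -0.28 to -0.02 with Prozac and from -0.13 to 0.22 in TBI rats. Chemokine genes (21 of 31) and antigen presentation genes (20 of 23) each had a median of -0.08 relative to all probes, and interferon-stimulated genes (24 of 29) one of 0.05. Microglia and macrophage genes (26 of 28) had a median within 0.002 of that of all probes, with the same sign in 9 of 15 settings, and Itgam was the 1 gene of the 26 whose groups did not overlap, against 14.9% of all probes wholly higher.

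Stress, cell death and vascular lists were below or near the median of all probes. Calpain, caspase and Bcl-2 family genes (29 of 36) had a median of -0.07 relative to all probes, and Capns1, the small calpain subunit, was at 0.79, 0.75 and 0.49 against 0.19, 0.28 and 0.23 (difference 0.44, SE 0.13, adjusted p = 0.343). Heat shock genes (17 of 21) had a median of -0.13, and antioxidant and metallothionein genes (23 of 25) one of -0.15. Lysosomal genes (36 of 37), cholesterol genes (29 of 30) and endothelial barrier genes (21 of 26) each had a median of -0.01. Of the 21 endothelial genes 2 were wholly higher, Ocln and the adhesion gene Icam2 (difference 0.54), against 14.9% of all probes. The cadherin gene Cdh5 (difference -0.48) was wholly lower, against 0.289% of all probes. With arrays centred, 2 endothelial genes were wholly higher and 2 wholly lower (Cdh5 and the lipid transporter gene Mfsd2a), against 4.84% and 10.8% of all probes. Glucocorticoid-responsive genes (18 of 23) had a median of -0.08. Axon growth genes (19 of 24) had one of -0.04, with Nrp1, a guidance receptor, at a difference of 0.92 and Sprr1a at the opposite end.

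Of 81 ribosomal protein genes measured, 4 lay above the median of all probes, and the list's median was -0.17 relative to it. Respiratory chain genes (73 of 73) had a median of -0.08, with 11 above that of all probes. With arrays centred, 42 of 81 ribosomal and 32 of 73 respiratory chain genes had TBI+Prozac arrays wholly below the TBI arrays. These genes are bright, with 79 of 81 and 66 of 73 in the brightest of the 5 groups of probes, where 26.1% of all probes were wholly below. With quantile normalization the medians were -0.06 and -0.01 relative to all probes and the groups of arrays overlapped. The part of signal-dependent scaling in the difference was not tested.

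**Figure D4:**
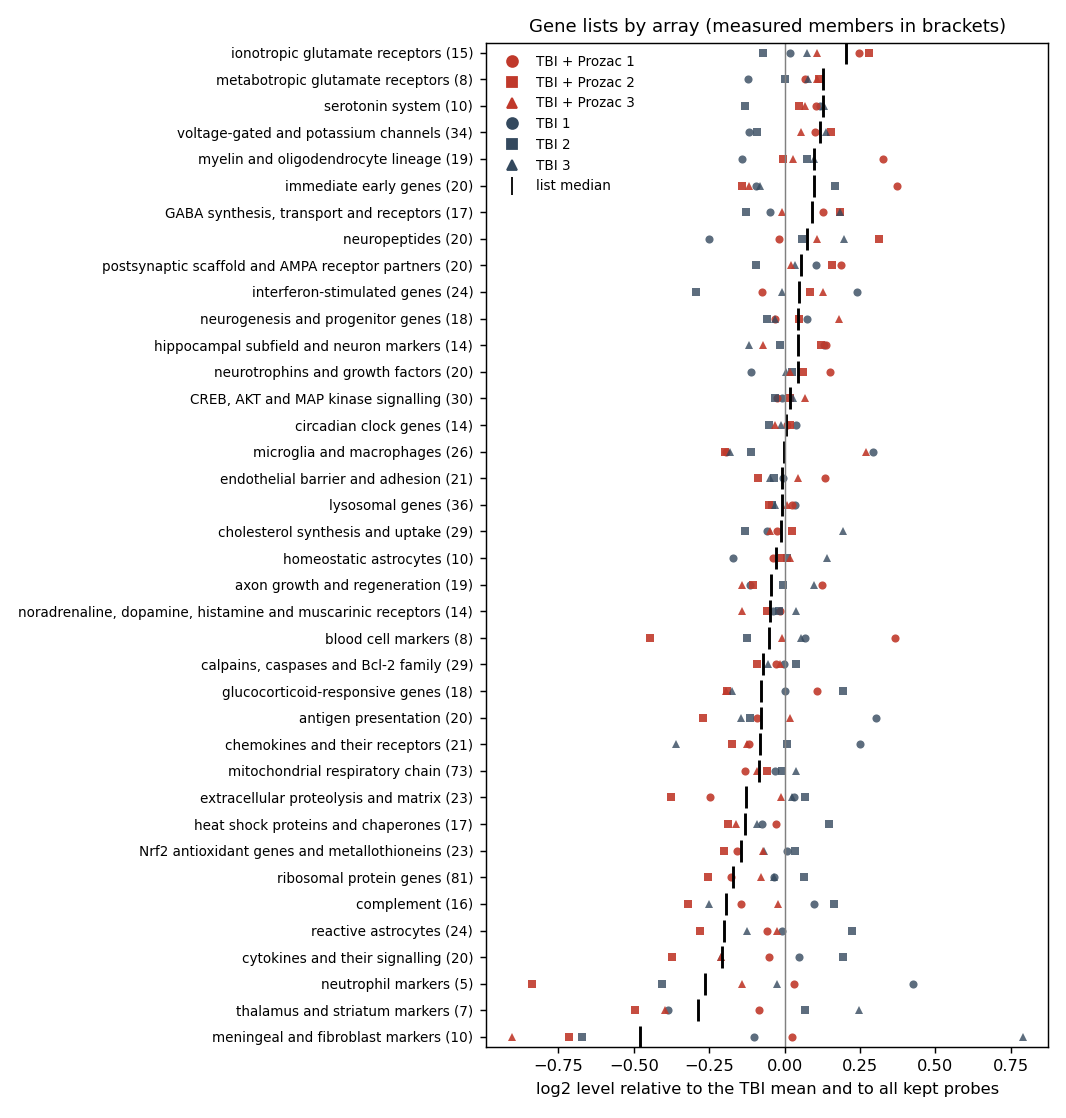
Level of each gene list in each array (log2; median over measured members of the value minus the TBI mean, less the same over all kept probes), with TBI+Prozac arrays in red and TBI arrays in dark, and the list's median difference relative to all probes as a black bar. Of 39 lists, 34 had overlapping groups of arrays; the ionotropic glutamate receptors lay wholly higher with Prozac and 4 lists wholly lower (the choroid plexus list, which spans a far wider range, was left out of the plot).

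The lists whose arrays separated were few. On the chosen scale 1 of 39 lists was wholly higher with Prozac (ionotropic glutamate receptors) and 4 wholly lower (ribosomal protein, respiratory chain, antioxidant, and extracellular proteolysis genes). With quantile normalization none was wholly higher and 2 were wholly lower (antioxidant and extracellular proteolysis genes). With a normexp background correction, the ionotropic receptors were again wholly higher, and the calpain, caspase and Bcl-2 list was the 1 list wholly lower. Over 15 settings, the list medians of the glutamate receptors of both kinds, the postsynaptic, GABA and channel genes stayed above that of all probes. Those of the cytokine, complement, reactive astrocyte, calpain and caspase, heat shock, antioxidant, proteolysis, ribosomal and respiratory chain genes stayed below it. Settings that only rescale whole arrays could not turn these signs. Signs of the remaining hippocampal lists turned in 1 or more settings, as those of the serotonin genes did in 1 and of the immediate early genes in 2.

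Choroid plexus and meningeal markers, which belong to neighbouring tissue, differed widely between arrays of the same group. Ttr, the thyroxine carrier of the choroid plexus, was at 6.44 in TBI+Prozac replicate 1 and at -2.61 and -2.63 in replicates 2 and 3, and at -0.68, 0.90 and 4.83 in the TBI replicates. Folr1 and Aqp1, also made by this tissue, were likewise highest in TBI+Prozac replicate 1 and TBI replicate 3. The list held 3 measured genes of 12, and its summed linear level was 87.8, 0.204 and 0.206 in the TBI+Prozac arrays and 0.669, 1.92 and 28.7 in the TBI arrays. Kcnj13, Clic6 and Otx2 were among the markers not kept. Meningeal and fibroblast genes (10 of 12) summed to 18.3, 7.63 and 6.47 against 9.30, 8.55 and 22.9, again highest in TBI+Prozac replicate 1 and TBI replicate 3. Their list median was -0.48 relative to all probes, and 0.03 in replicate 1 alone. Thalamus and striatum markers (7 of 10) had a median of -0.29, with sums of 1.40 to 2.05 with Prozac and 1.15 to 2.58 in TBI rats, and neutrophil markers (5 of 12) one of -0.26, with sums of 0.582 to 1.35 and 0.543 to 2.80. With TBI+Prozac replicate 1 and TBI replicate 3 both left out, the ionotropic glutamate receptors were 0.25 above the median of all probes and reactive astrocyte, cytokine and ribosomal genes were at -0.32, -0.33 and -0.20. The part of the neighbouring tissue in other results was not tested.

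**Figure D5:**
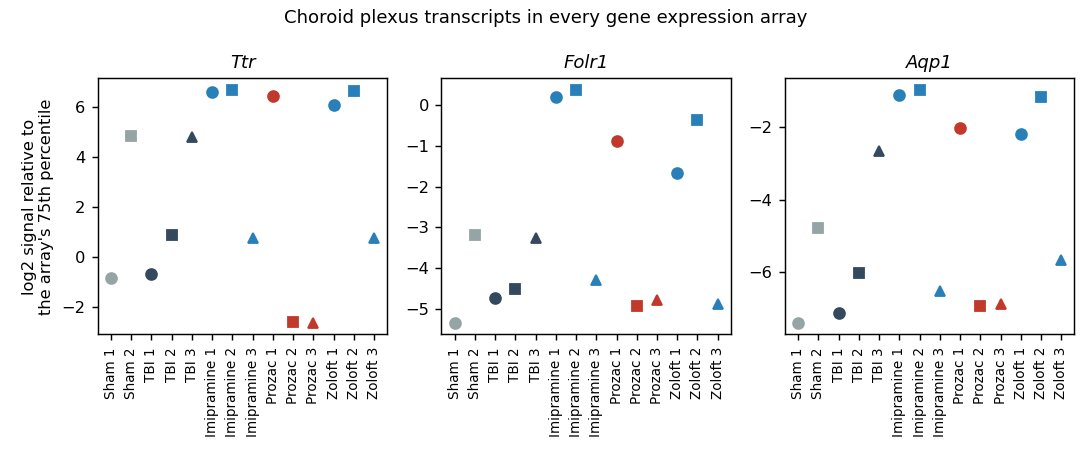
Log2 signal relative to the array's 75th percentile for Ttr, Folr1 and Aqp1 in every gene expression array (red, TBI+Prozac; dark, TBI; grey, Sham; blue, the other drugs; circle, square and triangle mark replicates 1, 2 and 3). Ttr spans from -2.63 to 6.69, and TBI+Prozac replicate 1, at 6.44, lies among the high arrays of the other drugs.

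Slide and group could be separated through 1 rat alone. TBI+Prozac replicate 1 was the only treated array on the TBI slide, and with slide as a fixed block the difference equals that array minus the TBI mean. Without replicate 1 the treated and untreated arrays shared no slide, and 121 probes then passed the adjusted threshold (0.699% of those tested, limma), 120 of them higher. Over these 121 the median difference from TBI was 1.17 in replicates 2 and 3 and 0.29 in replicate 1, and the mean of the imipramine and Zoloft arrays, on the slide of replicates 2 and 3, differed from TBI by a median of 1.23. Sham arrays, on a slide of their own, differed from TBI by a median of 1.63 over the same probes. Replicate 1 lay on the same side of the TBI mean for 92 of the 121 and beyond all TBI arrays for 69. Of the 121, 15 probes had a gene symbol. The genes whose brightest probe passed and was above background on all 5 arrays were Rchy1 (difference 1.33, adjusted p = 0.00404 in limma), Spon1, which encodes the matrix protein F-spondin (0.80, adjusted p = 0.0483), and Cox6c-ps1 (1.65, adjusted p = 0.0356). In replicate 1, Rchy1 was 0.44 and Spon1 0.57 above the TBI mean, beyond every TBI array, while Cox6c-ps1 was 0.04 above it. In Sham rats Rchy1 was at -3.10 and -3.17 and Spon1 at -1.28 and -1.15, against -4.98, -4.80 and -4.71 and -2.14, -2.46 and -2.14 in TBI rats. The 1 probe that was lower was for Ccdc167 (-1.72, adjusted p = 0.00317 in limma), whose brighter probe gave a difference of 0.74 over all 6 arrays. Slide and drug cannot be told apart for probes at which replicate 1 did not depart from TBI.

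No probe separated Prozac from the other antidepressants at the adjusted threshold. Against the mean of the imipramine and Zoloft arrays (6 arrays), 0 of 17322 probes passed the adjusted threshold in limma (0%), and 1880 had an unadjusted p under 0.05. In this contrast, which uses the same 3 TBI+Prozac arrays and no TBI array, the differences of the glutamate receptor genes were 0.91 for Gria1, 0.42 for Gria2, 0.13 for Gria3 and 0.20 for Grik2. Those of their partners Nsf and Cnih2 were 0.70 and 0.91. Dscaml1 differed by 1.35, Itgam by 0.55, Rchy1 by -0.31 and Abhd16a by 0.09, and none of these passed the threshold (adjusted p between 0.22 and 0.84 in limma).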

How the data were processed

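The authors hybridised hippocampal RNA to 1-colour rat arrays, and the deposited scanner files (Agilent Feature Extraction 11.5.1.1 per the submitters' processing notes) held a processed intensity per spot. The study's methods scaled each array to the 75th percentile of probes above background, and here log2 of the intensity relative to that percentile was taken after outlier-flagged spots were left out and spots of a probe averaged. Probes were taken as above background where the scanner marked more than 0.5 of their spots as such, and those that met this on every array of at least 1 group were kept. This kept 17322 of 30367 probes; 18643 of the 30367 matched a RefSeq symbol through their accession, and probes without a symbol stay unnamed. A gene was represented by its brightest kept probe. No pair of arrays held identical values (replicates correlated at 0.973 to 0.994). Array number, not read depth, limits the precision, and a fold here is relative to a percentile and not to an absolute amount.

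All 14 gene expression arrays in 5 groups were fitted together in limma 3.58.1 (R 4.3.3), two-sided, with Benjamini-Hochberg adjustment over all kept probes and a threshold of 0.05; the fit was tested on simulated data. Intensity values that the authors had themselves normalised, from the series table, were used in log2 as an alternative. The p-values measure the spread between these arrays, which carry separate animal numbers. The members and gene lists were chosen with earlier results of these data known. Genes were named where they passed the threshold, were among the 8 largest separate differences in each direction at an unadjusted p under 0.05 and above background on all 6 arrays, or were among the 3 members of smallest p in a list; other list members named were chosen after their values were seen. Some genes that the rule names are not reported here. Lists are described by counts and medians beside those of all probes. The planned normexp alternative used the median signal, since the files hold no mean signal. The alternatives were other scalings, background correction and filters, slide and replicate blocks, the methods' t-test and leaving out each array; 2 more (without TBI+Prozac replicate 1 and TBI replicate 3; quantile normalization without TBI replicate 1) were chosen after seeing the data. Sequence and coordinates were not used here. The miRNA arrays were not analysed here.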

Additional observations from a re-analysis of the deposited data

How the results depend on the processing

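TBI+Prozac vs. TBI gave 1 call, and 0 calls with quantile normalization, normexp background correction, probes above background on all 14 arrays or the replicate block. The replicate numbers did not pair the samples (correlations of deviations -0.135, 0.00662 and 0.011), and the replicate block lowered the probes at an unadjusted p under 0.05 from 1742 to 1535. There were 2 calls with the 75th percentile over all probes, with centred arrays, with the series table and with no filter on dim probes, and 6 with slide as a fixed block. Leaving out 1 array gave 0 to 121 calls (121 without TBI+Prozac replicate 1, 7 without TBI replicate 3, 2 without TBI+Prozac replicate 3, 0 without TBI replicate 2). Leaving out TBI+Prozac replicate 1 and TBI replicate 3 gave 115 (chosen after seeing the data). With the 6 arrays alone, the 1 call was a different, unnamed probe, which was lower. The methods' t-test called 1091 probes unadjusted with a fold limit of 1.2 and 1 after Benjamini-Hochberg adjustment. Of the probes at an unadjusted p under 0.05, 98.05% were higher, against 63.13% with quantile normalization, 48.77% with the percentile over all probes, 45.82% centred and 45% in the series table, and the median of all probes was then 0.002, -0.02, -0.02 and -0.03. Against the other drugs, 0 calls became 1 with the arrays of the 3 drugs alone, and leaving out 1 array gave 0 to 1.

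Ppp1r14bl was called in 12 of 20 settings, with a difference of 0.52 to 2.07. Direction turned for genes with small differences or wide spread. Aqp1 was at 0.12 with normexp, 0.019 with outlier spots kept, 3.25 with the slide block, and between -1.64 (without TBI+Prozac replicate 1) and 1.30 (without TBI replicate 3) with 1 array left out; without TBI+Prozac replicate 2 or 3 it was at 0.82 and 0.79. Ttr was at 4.76 with the slide block and from -4.30 (without TBI+Prozac replicate 1) to 0.29 (without TBI replicate 3) with 1 array left out, and Tnf at 0.048 with the slide block. Folr1 ranged from -0.69 without TBI+Prozac replicate 1 to 1.34 without TBI+Prozac replicate 2, and was at -0.24 without TBI+Prozac replicate 1 and TBI replicate 3. Fos was at -0.16 without TBI replicate 1, from -0.42 (without TBI+Prozac replicate 1) to 0.64 (without TBI+Prozac replicate 2) with 1 array left out, -0.28 without TBI+Prozac replicate 1 and TBI replicate 3, and -0.21 with quantile normalization without TBI replicate 1. Grik5 was at -0.048 with quantile normalization, -0.12 with the percentile over all probes, -0.13 centred and in the series table, -0.014 with normexp, from -0.072 (without TBI replicate 1) to 0.14 (without TBI replicate 3) with 1 array left out, and -0.043 with quantile normalization without TBI replicate 1. The cause was not tested. Other differences of named genes kept their direction, and 75 list medians under alternatives moved by more than the spread between replicates while 471 did not. The 471 include all 39 lists with the 75th percentile over all probes and all 39 with centred arrays. Those 2 settings only rescale whole arrays and could not move a relative median. All 39 were also unmoved with the series table.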
